A study of Mus musculus with 41 samples.

Results

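Binding of SOX9 and of the histone methyltransferases MLL3/4 was examined at 10 genes of the epithelial-mesenchymal transition, chosen by name: the cadherins *Cdh1* and *Cdh2*, the filament gene *Vim* and the transcription factor genes *Zeb1*, *Zeb2*, *Snai1*, *Snai2*, *Twist1*, *Twist2* and *Prrx1*. They are 10 of 21911 protein-coding genes. A locus was the gene body with 50 kb to each side in mm10, which gave windows of 102.2 to 320.4 kb (median 156.7 kb, against 117.4 kb over all protein-coding genes). In mm10 *Vim* lies at chr2:13573927-13582826 (plus strand), *Zeb2* at chr2:44983632-45117395 (minus), *Snai1* at chr2:167538195-167542814 (plus), *Snai2* at chr16:14705852-14709385 (plus) and *Twist1* at chr12:33957671-33959829 (plus). *Twist2* lies at chr1:91801461-91848028 (plus), *Prrx1* at chr1:163245119-163313710 (minus), *Cdh1* at chr8:106603351-106670246 (plus), and *Zeb1* and *Cdh2* on chromosome 18. CUT&RUN (CNR) sequences the DNA that an antibody-tethered nuclease releases around a bound protein, and a peak is a stretch where that signal passes a caller's limit. In vivo, epidermal stem cells (EpdSCs) came from back skin of CD1 male mice carrying K14rtTA and TRE-myc-Sox9, in which doxycycline (DOX) feeding turns on MYC-tagged *Sox9* in epithelium that uses the keratin 14 promoter. The sort took cells high for CD49f and Ly6A and negative for CD34, CD31, CD45, CD117 and CD140a, of which CD140a marks fibroblasts. SOX9 CNR covered D0 (no DOX, postnatal day 21) and weeks (W) 1 (day 28), 2 (day 35), 6 (day 63) and 12, and MLL3/4 was profiled at the first 3 of these times. The W12 skin had been grafted from newborn mice onto immunocompromised Nude females, and since the mice also aged, neither age nor grafting can be told apart from the time on DOX. In culture, keratinocytes of newborn K14rtTA pups carried WT-SOX9, SOX9 lacking the transactivation domain (ΔTA-SOX9, labelled Sox9noTA) or SOX9 lacking the HMG domain that binds DNA (ΔHMG-SOX9, labelled Sox9noHMG). These cells received 1 µg/ml DOX, beside WT-SOX9 cells without DOX, and were profiled for the MYC tag and for MLL3/4. Each of these 16 groups had 2 samples and 1 peak list called on both together, so no difference between groups could be tested and intervals cover counting error only.

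In an epithelial-mesenchymal transition, epithelial cells loosen their junctions and take on mesenchymal features, as in gastrulation, wound repair and invasive carcinoma. *Cdh1* encodes E-cadherin, which holds epidermal cells together, and the ZEB and SNAI factors are known to repress it through E-box words in its promoter. *Cdh2* encodes N-cadherin and *Vim* encodes vimentin, both typical of mesenchymal cells, and the TWIST factors and PRRX1 are further inducers of the mesenchymal state. SOX9 recognizes a short SOX word in DNA and marks hair follicle stem cells, and MLL3/4 place the H3K4me1 mark on enhancers.

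Sequences around SOX9 maxima at the mesenchymal loci and at *Cdh1* are shown first, as examples of the sites described below and not as the strongest of each locus. Each is 101 bases of the plus strand of mm10 centred on the maximum of a peak. Capitals mark the SOX core words CATTGT and CTTTGT and the AP1 words TGACTCA and TGAGTCA, on either strand, so that a SOX word on the other strand reads ACAATG or ACAAAG. The first is in the intron of *Vim* that carried SOX9 at W6 and W12.
Vim intron, W6, chr2:13576161-13576261: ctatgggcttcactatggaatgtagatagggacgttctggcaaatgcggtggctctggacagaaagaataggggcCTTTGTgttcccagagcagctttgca
The next sequence lies upstream of *Vim*, at -46.4 kb from its start (negative distances are upstream), in an intron of its neighbour *Trdmt1*, a tRNA methyltransferase gene, and held the strongest WT-SOX9 peak of the mesenchymal loci in culture.
Trdmt1 intron before Vim, WT-SOX9 in culture, chr2:13527431-13527531: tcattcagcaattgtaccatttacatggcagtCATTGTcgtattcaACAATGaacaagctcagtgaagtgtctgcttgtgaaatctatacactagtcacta
Neighbouring sites in an intron of *Zeb2* follow, of which W6 EpdSCs had the first and cultured WT-SOX9 cells both. Of the 3 WT-SOX9 peaks of *Zeb2* in culture the second sequence was from the weakest, and the windows of the other 2, centred on their own maxima, held no SOX core word.
Zeb2 intron, W6, chr2:45019350-45019450: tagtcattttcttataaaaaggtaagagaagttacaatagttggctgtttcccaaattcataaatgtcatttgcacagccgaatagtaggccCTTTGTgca
Zeb2 intron, WT-SOX9 in culture, chr2:45019970-45020070: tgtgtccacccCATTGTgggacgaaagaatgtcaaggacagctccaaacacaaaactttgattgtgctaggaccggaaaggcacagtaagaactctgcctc
The window of the *Twist1* peak had a SOX core word and an AP1 word, and that of the *Snai2* promoter at W1 had neither.
Twist1, intergenic, W12, chr12:33973980-33974080: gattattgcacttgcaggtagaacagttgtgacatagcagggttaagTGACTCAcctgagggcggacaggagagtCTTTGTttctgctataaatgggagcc
Snai2 promoter, W1, chr16:14705720-14705820: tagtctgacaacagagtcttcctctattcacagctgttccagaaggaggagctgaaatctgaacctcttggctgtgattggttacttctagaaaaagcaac
At *Cdh1* the region with the highest maximum and a region that was higher at W6 than at W1 both held an AP1 word, and the latter also a SOX word.
Cdh1 intron, W2, chr8:106619774-106619874: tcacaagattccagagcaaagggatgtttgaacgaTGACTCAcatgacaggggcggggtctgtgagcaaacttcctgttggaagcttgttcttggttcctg
Cdh1 intron, W6, chr8:106656216-106656316: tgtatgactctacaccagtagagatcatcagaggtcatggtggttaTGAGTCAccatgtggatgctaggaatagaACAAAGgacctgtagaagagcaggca
The last 2 sequences, of ΔTA-SOX9 peaks at *Zeb2* and *Prrx1* in culture, were picked because they hold an AP1 word, which 10 of the 17 ΔTA-SOX9 peaks at the 10 loci did not, among them the strongest, at *Vim*.
Beyond the Zeb2 end, ΔTA-SOX9 in culture, chr2:44969457-44969557: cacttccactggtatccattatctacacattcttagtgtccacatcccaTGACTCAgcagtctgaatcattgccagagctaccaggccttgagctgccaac
Prrx1 intron, ΔTA-SOX9 in culture, chr1:163273223-163273323: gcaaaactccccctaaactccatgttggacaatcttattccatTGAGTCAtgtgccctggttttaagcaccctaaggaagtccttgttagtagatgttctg

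SOX9 peaks were many at the epithelial gene *Cdh1*, most of them by W2, and few at the other 9 genes, of which 4 were bound at W6 or W12 and not at W1 or W2, *Snai2* at W1 and W6, and 4 at no time. In the order D0, W1, W2, W6, W12, *Cdh1* had 4, 14, 19, 10 and 3 SOX9 peaks. The other 9 genes together had 0, 1, 0, 5 and 4. Loci with a SOX9 peak thus numbered 1, 2, 1, 5 and 4 of the 10. Among protein-coding genes the share with a peak in such a window was 6.03%, 52.4%, 57.5%, 58.7% and 39.8% in the same order. In these lists the share of the 10 loci was below that of protein-coding genes at W1 and W2 and near it at W6 and W12. With a flank of 100 kb, the loci with a SOX9 peak numbered 4, 4, 6 and 5 of the 10 from W1 to W12 in order, against 65.6%, 68.9%, 70.7% and 55.2% of protein-coding genes. At W6 there were 2 with lists of equal size (37.4% of protein-coding genes), 2 with the top 50% of each list by total signal (38.7%) and 1 above a maximum of 3600 RPKM (28.2%; RPKM, read density scaled for length and depth, is the unit of the SOX9 and MYC-tag signal), and at W12 there were 4 (39.8%), 2 (23.1%) and 1 (11.4%) in the same order. The deposited SOX9 lists held 792, 15651, 18657, 20579 and 9745 peaks from D0 to W12. Across all of W1 to W12, 6 of the 10 loci had a SOX9 peak, against 67.1% of protein-coding genes, and *Cdh2*, *Prrx1*, *Snai1* and *Twist2* had none.

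**Figure D1:**
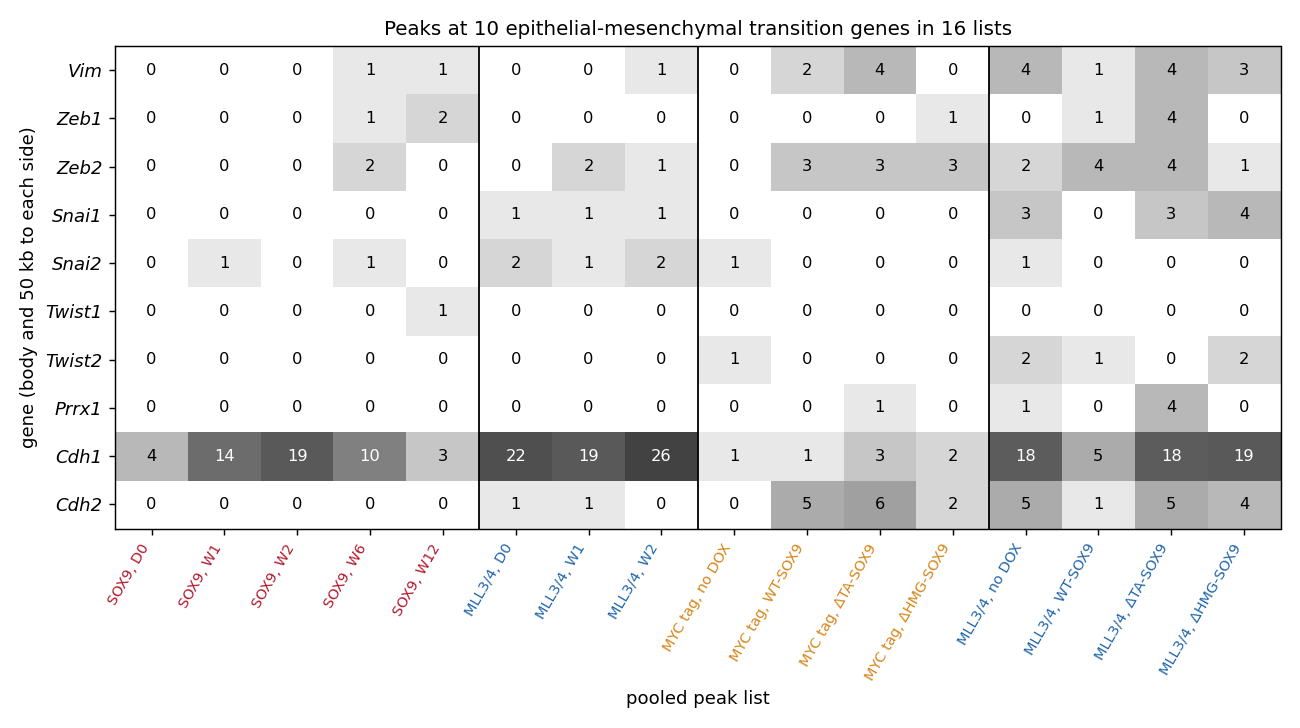
Number of peaks at each of the 10 genes (rows; gene body and 50 kb to each side) in each of the 16 pooled lists (columns; red labels, SOX9; blue, MLL3/4; orange, MYC tag), with darker cells for higher counts. *Cdh1* held 19 SOX9 peaks at W2, while *Vim*, *Zeb1*, *Zeb2* and *Twist1* had 0 at W1 and W2 and 1 or 2 at W6 or W12.

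Loci with a SOX9 peak at W6 or W12 and none at W1 or W2 were *Vim*, *Zeb1*, *Zeb2* and *Twist1*, which made 4 of the 10 genes against 6.38% of all protein-coding genes. Merging the peaks of W1 to W12 gave 28 regions at the 10 loci. Of these, 7 were first seen at W6 or W12 (25.0%, 95% Wilson interval 12.7% to 43.4%), near that over all 28549 regions of the genome (25.7%). At the 9 genes other than *Cdh1*, 6 of 7 regions were first seen at W6 or W12 (85.7%, 48.7% to 97.4%). At *Cdh1* this held for 1 of 21 regions (4.76%, 0.846% to 22.7%). Without W12, the grafted skin, *Vim*, *Zeb1* and *Zeb2* remained on the late side. With a flank of 100 kb *Zeb2* left it, since SOX9 peaks of W1 or W2 lay farther out, and with a flank of 10 kb *Twist1* left it. Above a maximum of 3600 RPKM none of these 4 genes had a SOX9 peak, and with the top 50% of each list by total signal *Vim* and *Zeb2* alone were late. Of all protein-coding genes, 5.32% were late with a flank of 100 kb, 4.66% above 3600 RPKM and 6.36% with the top 50%. With lists of equal size all 4 stayed late, against 9.94% of protein-coding genes.

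*Vim* had a single SOX9 region, in an intron 2.28 kb after the gene's start. Its maximum was 3232 RPKM at W6 and 2895 RPKM at W12, and no peak was called there at D0, W1 or W2. These maxima stood for 77 and 63 fragments, where the weakest peaks kept in the lists stood for 43 and 40. They were above the median peak of both lists, which was 2729 RPKM at W6 and 2528 RPKM at W12. The region carried no MLL3/4 peak at D0, W1 or W2. A WT-SOX9 MYC-tag peak of 1970 RPKM lay on it in culture.

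*Zeb2*, which encodes a repressor of E-cadherin, had 2 SOX9 regions, called at W6 only and both intronic. The one 98.0 kb into the gene had a maximum of 2603 RPKM (62 fragments). *Zeb1*, its paralog, had a region 213.8 kb from its start, beyond the gene's end, with 2309 RPKM at W6 and 2252 RPKM at W12, and an intronic region at 74.6 kb with 2390 RPKM at W12 alone. *Twist1*, which encodes a basic helix-loop-helix factor, had 1 region 16.4 kb from its start at W12, with 2068 RPKM. All of these maxima at *Zeb1* and *Twist1* were below the median of their lists, and all regions of *Zeb2*, *Zeb1* and *Twist1* lay off the MLL3/4 peaks of D0, W1 and W2.

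*Snai2*, which encodes SLUG, was the one mesenchymal gene bound by SOX9 at its promoter. The peak lay at -0.082 kb at W1 with 2420 RPKM (42 fragments) and at -0.068 kb at W6 with 2141 RPKM (51 fragments), and no peak was called at W2 or W12. Both values were below the list medians of 2708 and 2729 RPKM. An MLL3/4 peak lay on this promoter at D0 and at W2 and not at W1, with a maximum coverage of 7 and 6. A second *Snai2* MLL3/4 site, at -4.29 kb by its D0 peak, was called at D0, W1 and W2.

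MLL3/4 peaks in vivo were as unevenly spread. *Cdh1* held 22 at D0, 19 at W1 and 26 at W2, and the other 9 genes together 4, 5 and 5. Of the 10 loci, 4 had an MLL3/4 peak at D0, 5 at W1 and 5 at W2, against 71.7%, 67.9% and 65.0% of protein-coding genes. No MLL3/4 peak was called at *Zeb1*, *Twist1*, *Twist2* or *Prrx1* at any of the 3 times. At *Vim* the only one, at W2, lay at the start of *Trdmt1*, at -29.3 kb from *Vim*. *Zeb2* had none at D0, 2 at W1 and 1 at W2, of which the site 161 kb from the start was called at both W1 and W2. *Snai1* had 1 peak at each time, at a different place each time, and the W1 peak was at the start of its neighbour *Rnf114*. All of these peaks at the 9 genes had a maximum coverage of 5 to 7, where the lowest maximum in the lists was 5 and the median 7. Of the 9 genes' SOX9 regions, 1 of 7 lay on a D0 MLL3/4 peak (14.3%, 2.57% to 51.3%), against 53.7% of all regions in the genome, and none of the other 6 lay on an MLL3/4 peak of W1 or W2 (0% to 39.0%), against 44.7% of such regions in the genome.

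In cultured keratinocytes *Cdh2*, *Zeb2* and *Vim* carried most of the tagged SOX9 at the 10 loci. With the MYC tag, 3 of the 10 loci had a peak without DOX, 4 with WT-SOX9, 5 with ΔTA-SOX9 and 4 with ΔHMG-SOX9. The shares of protein-coding genes were 20.1%, 32.0%, 41.0% and 29.3% in the same order. Without DOX the 3 peaks were 1 each at *Snai2*, *Twist2* and *Cdh1*, of 9 to 16 fragments. In the list of replicate 1 alone 7 loci had a peak without DOX, with 4 peaks at *Cdh1*, 3 at *Cdh2* and 1 each at *Vim*, *Zeb2*, *Prrx1*, *Snai2* and *Twist2*. That list also kept peaks below the pooled lists' limit, down to 791 RPKM, and only 2 of its peaks at *Cdh1*, 1 at *Cdh2* and 1 at *Snai2* were above the lowest maximum of the pooled no-DOX list, 1822 RPKM. *Cdh2* held 5 WT-SOX9 peaks, *Zeb2* 3, *Vim* 2 and *Cdh1* 1, and the other 6 genes held none. *Cdh2* held 6 ΔTA-SOX9 peaks, *Vim* 4, *Zeb2* 3, *Cdh1* 3 and *Prrx1* 1. None of the 11 WT-SOX9 peaks overlapped a ΔTA-SOX9 peak (0 of 11, 0% to 25.9%), against 19.2% of all WT-SOX9 peaks, a share inside that interval.

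Some WT-SOX9 peaks at these loci lay on MLL3/4 peaks that were called with WT-SOX9 and in no other culture. All 3 WT-SOX9 peaks of *Zeb2* were intronic and lay on an MLL3/4 peak of the same cells, among them those at 98.0 and 97.4 kb from the start with 3119 and 1970 RPKM. None of the 3 sites had an MLL3/4 peak without DOX, with ΔTA-SOX9 or with ΔHMG-SOX9. The site at -46.4 kb from *Vim* had the same pattern, with a WT-SOX9 maximum of 4268 RPKM (26 fragments), which ranked 457 of 6671 by total signal. So had an intronic site of *Cdh2* 85.0 kb from the start, with 3283 RPKM. The WT-SOX9 peak in the *Vim* intron and the other 4 at *Cdh2*, of 1970 to 2298 RPKM (12 to 14 fragments), had no MLL3/4 peak. Together 5 of the 10 WT-SOX9 peaks at the mesenchymal genes lay on an MLL3/4 peak of the same cells (50.0%, 23.7% to 76.3%) and 0 of 10 on one of the cells without DOX (0% to 27.8%). Over all WT-SOX9 peaks these shares were 56.6% and 27.7%, so that the first was near that of the whole list. Of the same 10 peaks, 3 lay on SOX9 peaks of W6 EpdSCs, 1 at *Vim* and 2 at *Zeb2*, and 0 on those of W1, against 48.5% and 37.5% of all WT-SOX9 peaks.

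**Figure D2:**
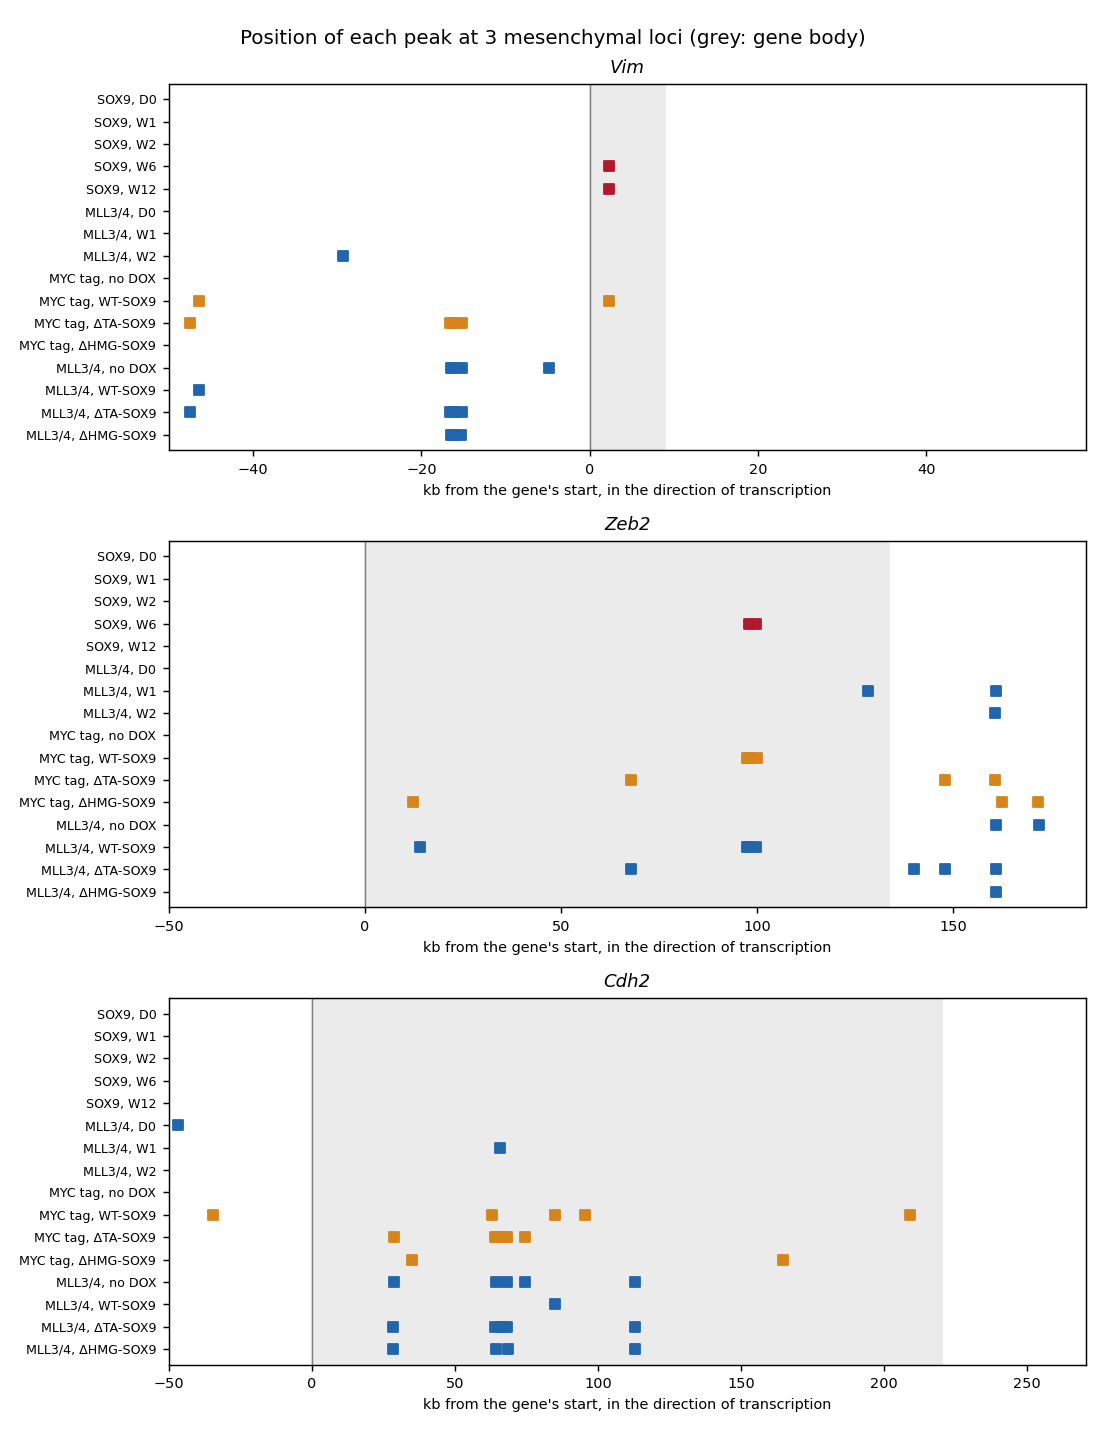
Position of every peak at *Vim*, *Zeb2* and *Cdh2*, in kb from the gene's start (horizontal axis; grey, gene body), in each of the 16 pooled lists (rows; red, SOX9; blue, MLL3/4; orange, MYC tag). The 3 WT-SOX9 peaks in the *Zeb2* intron line up with MLL3/4 of WT-SOX9 cells and 2 of them with SOX9 at W6, while the ΔTA-SOX9 peaks of 2051 to 5538 RPKM between *Trdmt1* and *Vim* line up with MLL3/4 of every culture except WT-SOX9.

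ΔTA-SOX9 peaks lay mostly on MLL3/4 peaks of ΔTA-SOX9 cells, as in the whole list. At the 9 genes, 12 of 14 ΔTA-SOX9 peaks lay on an MLL3/4 peak of ΔTA-SOX9 cells (85.7%, 60.1% to 96.0%) and 8 of 14 on one of the cells without DOX (57.1%, 32.6% to 78.6%), against 71.9% and 68.3% of all ΔTA-SOX9 peaks. Upstream of *Vim*, between it and *Trdmt1*, which was the nearest coding gene of all 4 ΔTA-SOX9 peaks counted for *Vim*, peaks stood at -16.6, -16.2 and -15.1 kb with maxima of 5538, 2051 and 3692 RPKM. At each of these 3 sites MLL3/4 peaks were called without DOX, with ΔTA-SOX9 and with ΔHMG-SOX9, and none was called with WT-SOX9. At *Cdh2* the 6 ΔTA-SOX9 peaks stood in introns between 28.5 and 74.5 kb from the start, with maxima of 2051 to 3897 RPKM, and 4 of the 6 lay on MLL3/4 peaks of the cells without DOX. *Prrx1*, a homeobox gene, had a ΔTA-SOX9 peak of 4513 RPKM in an intron 40.4 kb from its start, on 1 of the 4 MLL3/4 peaks that ΔTA-SOX9 cells had there. The cells without DOX had 1 MLL3/4 peak at *Prrx1* and the other cultures had none. ΔHMG-SOX9 had 6 peaks at the 9 genes, each of 8 or 9 fragments, where the weakest peak of that list stood for 8, and none lay on an MLL3/4 peak of its cells (0 of 6, 0% to 39.0%), against 47.7% of all ΔHMG-SOX9 peaks.

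MLL3/4 peaks of the uninduced cultures were seldom called with WT-SOX9 and mostly called with both altered forms. Of the 10 loci, 8 had an MLL3/4 peak without DOX, 6 with WT-SOX9, 7 with ΔTA-SOX9 and 6 with ΔHMG-SOX9, against 70.9%, 42.4%, 65.9% and 64.2% of protein-coding genes. At the 9 genes, 0 of the 18 peaks without DOX were found again with WT-SOX9 (0% to 17.6%), 10 with ΔTA-SOX9 (55.6%, 33.7% to 75.4%) and 12 with ΔHMG-SOX9 (66.7%, 43.8% to 83.7%). At *Cdh1*, 5 of 18 were found again with WT-SOX9 (27.8%, 12.5% to 50.9%), 16 with ΔTA-SOX9 (88.9%, 67.2% to 96.9%) and 17 with ΔHMG-SOX9 (94.4%, 74.2% to 99.0%). Over all 33975 peaks without DOX the shares were 18.03%, 55.7% and 56.5%. With WT-SOX9 fewer MLL3/4 peaks were called anywhere, 10543 against 25948 for ΔTA-SOX9 and 23301 for ΔHMG-SOX9, and the part of this list length in these shares could not be told apart from a change at the loci. With all 4 lists shortened to the same number of peaks, the shares over the 10 loci were 28.6% (4 of 14) with WT-SOX9, 78.6% with ΔTA-SOX9 and 64.3% with ΔHMG-SOX9. For the shortened lists, no share over all peaks and no split of *Cdh1* from the 9 genes is given.

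*Snai1*, which encodes SNAIL, showed this without any tagged SOX9 nearby. It had 3 MLL3/4 peaks without DOX, 0 with WT-SOX9, 3 with ΔTA-SOX9 and 4 with ΔHMG-SOX9, most of them 12.4 to 15.2 kb past the gene's start, and no MYC-tag peak in any culture. *Twist2* had 2 MLL3/4 peaks without DOX and 2 with ΔHMG-SOX9, at the same places, and with WT-SOX9 it had 1 at another place, at -35.4 kb. *Zeb1* had 4 MLL3/4 peaks with ΔTA-SOX9, 1 with WT-SOX9 and none otherwise. *Snai2* had 1 without DOX and none with DOX, and *Twist1* had no MLL3/4 or MYC-tag peak in any culture.

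SOX words and AP1 words were searched under the peaks, and in culture their shares at the 10 loci had intervals that included those of the whole lists. SOX words of 7 letters (CCATTGT or CCTTTGT and GCATTGT or GCTTTGT, on either strand) lay within 50 bp of the maximum in 5 of 11 WT-SOX9 peaks at the 10 loci (45.5%, 21.3% to 72.0%), in 2 of 17 ΔTA-SOX9 peaks (11.8%, 3.29% to 34.3%) and in 0 of 8 ΔHMG-SOX9 peaks (0% to 32.4%). The whole lists gave 34.2%, 12.6% and 5.28%. AP1 words lay in 1 of 11 WT-SOX9 peaks (9.09%, 1.62% to 37.7%) and in 7 of 17 ΔTA-SOX9 peaks (41.2%, 21.6% to 64.0%), against 7.15% and 25.7% of the whole lists. The AP1 word is bound by JUN and FOS factors. In vivo, SOX words lay in 2 of 15 SOX9 peaks at W1 and 2 of 19 at W2, against 18.5% and 15.5% of the whole lists. At W6 they lay in 5 of 15 (33.3%, 15.2% to 58.3%) and at W12 in 5 of 7 (71.4%, 35.9% to 91.8%), against 18.8% and 24.8%. When the whole peak was searched, the words lay in 8 of 15, 9 of 19, 9 of 15 and 6 of 7 peaks in order from W1 to W12, against 50.2%, 37.0%, 48.2% and 48.2%. E-box words (CAGGTG or CACCTG), of the kind bound by ZEB and SNAI factors, lay in 2 of 15 SOX9 peaks at W1, 3 of 19 at W2 and 2 of 15 at W6, against 7.54%, 8.40% and 7.56% of the whole lists. At W12 they lay in 3 of 7 (42.9%, 15.8% to 75.0%), against 7.01%, and these were 2 peaks of *Cdh1* and that of *Twist1*. The W6 windows printed above for the *Vim* and *Zeb2* introns each held a SOX word of 7 letters and no E-box word. The *Snai2* promoter window held neither.

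**Figure D3:**
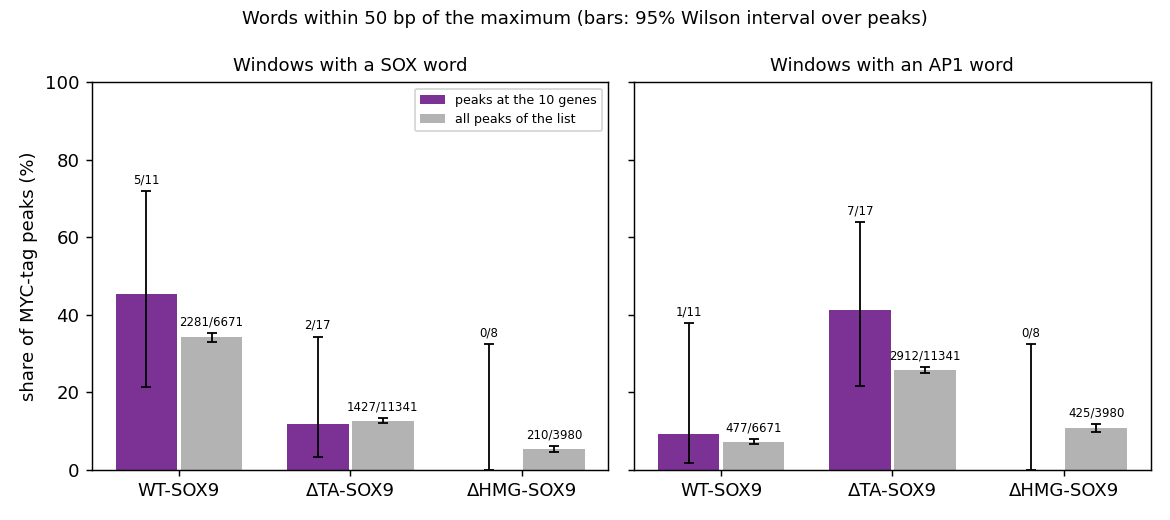
Share of MYC-tag peaks in cultured cells with a SOX word (left) or an AP1 word (right) within 50 bp of the maximum, in percent, for peaks at the 10 genes (purple) and for all peaks of the list (grey), with 95% Wilson intervals and counts above the bars. At the 10 genes SOX words were found in 5 of 11 WT-SOX9 peaks and AP1 words in 7 of 17 ΔTA-SOX9 peaks, and the intervals of the small counts overlap.

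*Cdh1* was among the loci with the most SOX9 peaks. Its 19 peaks at W2 were reached by 18 of 21911 protein-coding genes (0.0822%), a count that includes *Cdh1*. Of its 21 regions, 2 were called at D0 and at every later time, 2 at D0, W1, W2 and W6, and 6 at W2 alone. The region 16.5 kb into the gene had the highest maximum of the locus, with 2429, 6915, 9550, 5961 and 3263 RPKM in the order from D0 to W12, and its W2 peak ranked 293 of 18657 by total signal. The region at 12.8 kb had 2859, 5128, 7029, 6045 and 3355 RPKM in the same order. Both were highest at W2. The region at 52.9 kb differed from them: it had 3400 RPKM at W1, no peak at W2, 5247 RPKM at W6 and 4412 RPKM at W12. The promoter carried a weak SOX9 peak at W1 (2247 RPKM) and W2 (2139 RPKM) and none at W6 or W12. A stronger peak can mean that more cells were bound or that each cell was bound more fully, which bulk CNR cannot tell apart.

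Of the 21 *Cdh1* regions, 13 lay on an MLL3/4 peak that was already there at D0 (61.9%, 40.9% to 79.2%), near the 53.7% of all regions. Of the 8 others, 6 had an MLL3/4 peak at W1 or W2 (75.0%, 40.9% to 92.8%), against 44.7% of the 13221 such regions in the genome. These 6 were intronic regions between 1.42 and 37.8 kb from the start, and the 2 without MLL3/4 were at 32.6 and 35.9 kb. Of the 22 D0 MLL3/4 peaks at *Cdh1*, 9 were not found at W1 (40.9%, 23.3% to 61.3%) and 7 not at W2 (31.8%, 16.4% to 52.7%), and 10 of 26 peaks at W2 had no counterpart at D0 (38.5%, 22.4% to 57.5%). The shares over the genome were 48.5%, 48.7% and 35.7%. Over all 10 loci, 12 of 26 D0 peaks were lost at W1 (46.2%) and 9 of 26 at W2 (34.6%), and 10 of 24 peaks at W1 (41.7%, against 39.7% in the genome) and 13 of 31 at W2 (41.9%) were gained.

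**Figure D4:**
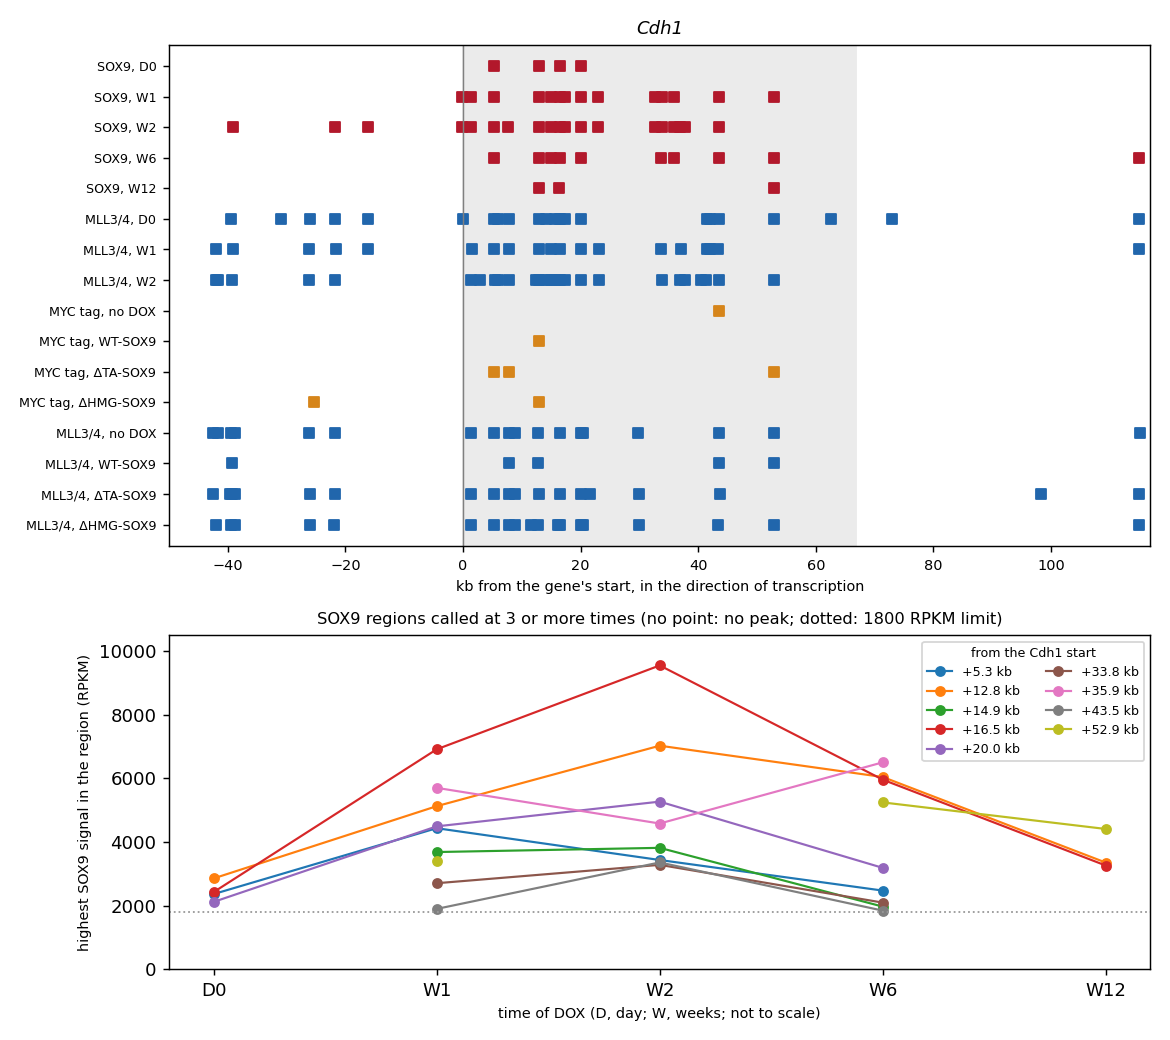
Upper part: position of every peak at *Cdh1* in kb from its start (horizontal axis; grey, gene body) in each of the 16 pooled lists (rows; red, SOX9; blue, MLL3/4; orange, MYC tag). Lower part: highest SOX9 signal (RPKM, linear axis from 0) at D0 to W12 in the regions called at 3 or more times, in which the region 16.5 kb from the start reached 9550 RPKM at W2 and the region at 52.9 kb had no peak at W2.

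In culture little of this binding was seen at *Cdh1*. It held 1 WT-SOX9 peak, with 1806 RPKM and 11 fragments, which was the size of the weakest peak of that list, on the region at 12.8 kb that was bound at all times in vivo. ΔHMG-SOX9 also had a peak on this region, of 3222 RPKM (13 fragments), and the strongest MLL3/4 peak of the locus without DOX stood there, which ranked 226 of 33975 by total signal. ΔTA-SOX9 peaks stood at 5.20, 7.85 and 52.9 kb, and all 3 lay on MLL3/4 peaks of the cells without DOX. The window of *Cdh1* reaches 3 other coding genes, *Cdh3* (P-cadherin), *Gm10073* and *Tango6*, and 4 of its 21 SOX9 regions were nearer to one of them than to *Cdh1*.

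Further genes of the same biology were counted in the same windows. Among 20 other mesenchymal genes, those with a SOX9 peak numbered 12, 12, 11 and 11 from W1 to W12 in order, against 52.4%, 57.5%, 58.7% and 39.8% of protein-coding genes. Of these 20 genes, 0 were bound at W6 or W12 without W1 or W2, against the 6.38% of all genes given above. *S100a4* and *Sparc* led this list with 30 SOX9 peaks each over W1 to W12, followed by *Mmp2* with 24. Among 20 other epithelial genes these numbers were 18, 19, 19 and 15, with 0 bound late alone and a median of 5 peaks a gene at W2 against 1 over all protein-coding genes. The adherens junction gene *Ctnnd1* led with 28, followed by *Cdh3* with 26, whose window overlaps that of *Cdh1*. MLL3/4 peaks of these 20 epithelial genes numbered 184 without DOX, 62 with WT-SOX9, 122 with ΔTA-SOX9 and 152 with ΔHMG-SOX9. Those of the 20 mesenchymal genes numbered 77, 16, 79 and 57, and the whole lists held 33975, 10543, 25948 and 23301 in the same order.

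Markers of the sorted cell type and of others were counted in the same way. Of all protein-coding genes, 52.4%, 57.5%, 58.7% and 39.8% had a SOX9 peak at W1 to W12 in order. An MLL3/4 peak was there for 71.7%, 67.9% and 65.0% at D0, W1 and W2. All 6 epidermal basal genes (*Krt5*, *Krt14*, *Trp63*, *Itga6*, *Itgb4* and *Col17a1*) had SOX9 peaks at W1 to W12, with 35 to 65 peaks in all per list, and MLL3/4 peaks at D0 to W2, with 74 to 95. Of 7 fibroblast genes, 1 or 2 had a SOX9 peak at each of W1 to W12, with 2 to 6 peaks in all, and 2 to 4 had an MLL3/4 peak in vivo, with 6 to 9. *Col1a1* held most of these SOX9 peaks, 12 over W1 to W12. *Dcn*, which encodes the matrix proteoglycan decorin, was the one of the 7 bound at W6 or W12 and not at W1 or W2. Of 4 endothelial, 4 immune, 4 melanocyte and 3 Schwann cell genes, at most 2, 3, 1 and 2 had a SOX9 peak in any of the lists from D0 to W12, and the leukocyte gene *Ptprc* was the one of these bound late alone. An MLL3/4 peak was called at D0 at 2, 2, 4 and 2 of them in the same order, with 19, 29, 14 and 10 peaks. At W1 and at W2 it was called at 2 genes of each type, with 12, 16, 3 and 8 peaks and with 17, 14, 5 and 5. Other cells of the skin among the sorted cells, and their part in the late peaks, were not tested.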

How the data were processed

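The authors' reads went through Skewer, Bowtie2 2.2.9 against mm10, Picard duplicate removal and a SAMtools 1.3.1 selection of short fragments; both replicates of a group were then combined into coverage by deepTools 3.1.2 and peaks called by SEACR at its stringent setting. In the deposited lists of SOX9 and of the MYC tag the maximum signal is in RPKM, with a lower limit set by the authors in the pooled lists (lowest value kept 1805) and none near it in the MYC-tag list of replicate 1 alone (lowest value 791). The deposited pooled MLL3/4 lists hold unscaled whole-number coverage as signal. The total signal, a score summed over a peak's bases by the authors' caller, was used only for ranks within a list. Of 41 samples, 32 stood behind the 16 pooled lists and 2 lists of replicate 1 alone, and 9 (JUN, ARID1a and BRG1) were not analysed here. Both labels of WT-SOX9 MLL3/4 with DOX describe replicate 2, so which samples that list holds is unsure. Groups came from the labels.

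Peaks overlapping the gene body and 50 kb to each side (GENCODE vM21 protein-coding genes, mm10 = GRCm38.p6) by at least 1 bp were counted with Python 3.11.15, pandas 2.3.3, numpy 2.4.6 and pysam 0.24.0, and plots were drawn with matplotlib 3.10.9. Positions are 1-based, from the authors' intervals, and distances run from a gene's start to a peak's maximum. Mitochondrial peaks were left out (3 from every pooled MLL3/4 list made in culture). Peaks were called found again, lost or gained by overlap. Fragments behind a peak are its maximum divided by the RPKM of 1 fragment, the largest step of which low maxima are whole multiples (within 0.02 of a fragment). This step was 30.7 to 76.4 RPKM in SOX9 lists and 164 to 248 RPKM in pooled MYC-tag lists. Depth of the unscaled lists is unknown. Promoters reach 1 kb to each side of an annotated start. Named peaks were, per gene, the SOX9 region and the WT-SOX9 peak of highest maximum, the D0 or no-DOX MLL3/4 peak of highest total signal, and SOX9 peaks within 1 kb of the start, and the other peaks named were chosen after their values were seen. The sequence and position of 1 site are not reported here. Wilson intervals are at 95%. Overlap and counting were tested on simulated peaks. The genes, the wider lists and the markers were chosen with earlier results of these data known.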

Additional observations from a re-analysis of the deposited data

Results flagged for a closer look

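At *Cdh1* the number of MLL3/4 peaks went opposite ways in the 2 systems: W2 minus D0 in vivo was 4 (26 against 22 peaks), and WT-SOX9 with DOX minus no DOX in culture was -13 (5 against 18 peaks). At *Vim* the same differences were 1 (1 against 0) and -3 (1 against 4). Each number compares 1 pooled list with another, and the difference between the systems was not tested. The culture list with WT-SOX9 and DOX held 10543 peaks against 33975 without DOX, and the in vivo lists held 29281 at W2 against 37072 at D0. The part of list length in these differences was not tested.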

How the results depend on the processing

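No paired analysis was possible because the lists were called on both replicates of a group together, which also prevented leaving out replicates other than in the no-DOX lists. Of 112 recomputed values of the 15 main results, 94 stayed within the counting interval of the reported share or within 1.5 times the reported count, and 18 moved. With a flank of 100 kb, 4 loci had a SOX9 peak at W1 and 4 at W2. Above 3600 RPKM the loci with a peak were 1 at W1, 1 at W6, 1 at W12 and 1 with WT-SOX9, late regions made 12.5% (1 of 8, against 25.0% as reported), regions on D0 MLL3/4 peaks 75.0% and WT-SOX9 peaks on MLL3/4 peaks 100% (1 of 1). With the top 50% of each list by total signal, 1 locus had a SOX9 peak at W1, 2 at W6 and 2 at W12. With lists of equal size these were 1 at W1 and 2 at W6, D0 MLL3/4 peaks lost at W2 made 16.7%, no-DOX peaks kept with ΔHMG-SOX9 64.3%, and WT-SOX9 peaks on MLL3/4 peaks 80.0%. Against the no-DOX list of replicate 1 alone, 64.4% of 45 peaks were kept with ΔHMG-SOX9. The cause of these moves was not tested beyond the fewer or more peaks that each setting leaves. Genes late by SOX9 numbered 4 as reported and 0 (above 3600 RPKM) to 4 otherwise, and without W12, a setting chosen after the data were seen, 3. A flank of 100 kb or 10 kb left 3. SOX words lay in 28.4% of the 67 induced SOX9 and WT-SOX9 peaks, and in 59.7% when the whole peak was searched. No-DOX MYC-tag peaks at *Cdh1* were 1 in the pooled list and 4 in that of replicate 1 alone, at *Cdh2* 0 and 3, and at *Vim*, *Zeb2* and *Prrx1* 0 and 1 each, where the list of replicate 1 also lacked the pooled list's lower limit on the maximum. Counts of 10 genes and of few peaks limit every share, and absence of a peak means that none passed the caller's limit.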
